A study of Saccharomyces cerevisiae with 42 samples.

Results

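The PRM genes of Saccharomyces cerevisiae, PRM1 to PRM10, are the pheromone-regulated membrane protein genes, and their transcripts are described here through a hyperosmotic shock in 3 strains that differ in the MAP kinase Hog1. The members were taken by their identifiers in the level tables, with no measured value in the choice, and all 10 were found among the 6278 open reading frames on the array. All 10 were also among the 5999 open reading frames with at least 2 replicate fold changes in each strain, which were tested. The first strain lacks HOG1 (hog1del). The second carries a Hog1 that ends in CCAAX (HOG1-CCAAX), a motif of the kind that directs prenylation and membrane attachment. In the third, Hog1 carries a GFP tag (HOG1-GFP), and this strain served as the baseline to which the other strains were compared. Each strain was sampled 60 min after a shift to 1 M sorbitol at 25 °C and before it, at 0 min, and 3 biological replicates were taken of each of these 6 groups. The series title asks whether Hog1 must be in the nucleus for resistance to the stress. The sources used here do not state the mating type, the strain background, the number of clones or any tag on the CCAAX protein. They list no culture held for 60 min without sorbitol either, so time and shock cannot be told apart.

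Hog1 is activated by high external osmolarity and directs glycerol accumulation and a broad transcriptional programme. The mating pathway of yeast shares upstream kinases with it, and cells without Hog1 are known for turning on mating-pathway genes under hyperosmotic stress, a phenomenon called crosstalk. The mating transcription factor Ste12 acts at the end of that pathway, and most PRM genes were named for their induction by mating pheromone and their predicted membrane segments. Their products have diverse roles, from fusion of the plasma membranes of mating partners to fusion of the nuclear envelopes.

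On 42 arrays with 2 colours, a Cy3-labelled sample was hybridised with a common Cy5-labelled reference pool, and a level below is the log2 ratio of the sample over that pool. Levels of different genes are not compared, since each is relative to the pool. A response is the level at 60 min minus the level at 0 min within a strain and replicate. The 18 level columns held 5877 to 6143 open reading frames, with column medians of −0.05 to 0.09. HOG1 itself was at −3.97 to −3.49 (60 min) and −3.47 to −3.03 (0 min) in hog1del, and between −0.34 and 0.60 in the 12 columns of the other strains, as the labels state. Its level at 0 min was 3.16 log2 units lower in hog1del than in HOG1-GFP (limma adjusted p = 3.3e-07), with the remaining signal over background unknown. Columns of replicate 1 spread less than the others, with a median SD across open reading frames of 0.55 in replicate 1, 0.75 in replicate 2 and 0.72 in replicate 3. Calls of the genes named below that were lost or gained without a replicate are mostly given with the value found without it. Bulk RNA does not separate a change in every cell from a change in some of them.

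Most PRM transcripts were higher after the shock in every strain. Against HOG1-GFP, the response in hog1del was larger for PRM3 and PRM4 and smaller for PRM10, and no other member's response differed past the threshold between these strains. PRM7 moved the other way and PRM9 had no significant response. In hog1del, 7 of 10 members rose and 1 fell at a limma adjusted p under 0.05, where 53.1% of all tested open reading frames passed, 25.6% as higher and 27.5% as lower. In HOG1-CCAAX, 6 rose and 1 fell, against 53.8% passing among all, 27.5% as higher and 26.3% as lower. In HOG1-GFP, 6 rose and none fell, against 46.5% among all, 23.7% as higher and 22.8% as lower. The share called in either direction was thus nearest to the background in HOG1-GFP. The median response of the 10 members was 1.74 in hog1del, 1.02 in HOG1-CCAAX and 0.76 in HOG1-GFP, while the medians over all tested open reading frames were −0.01, 0.02 and −0.01 in the same order.

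**Figure D1:**
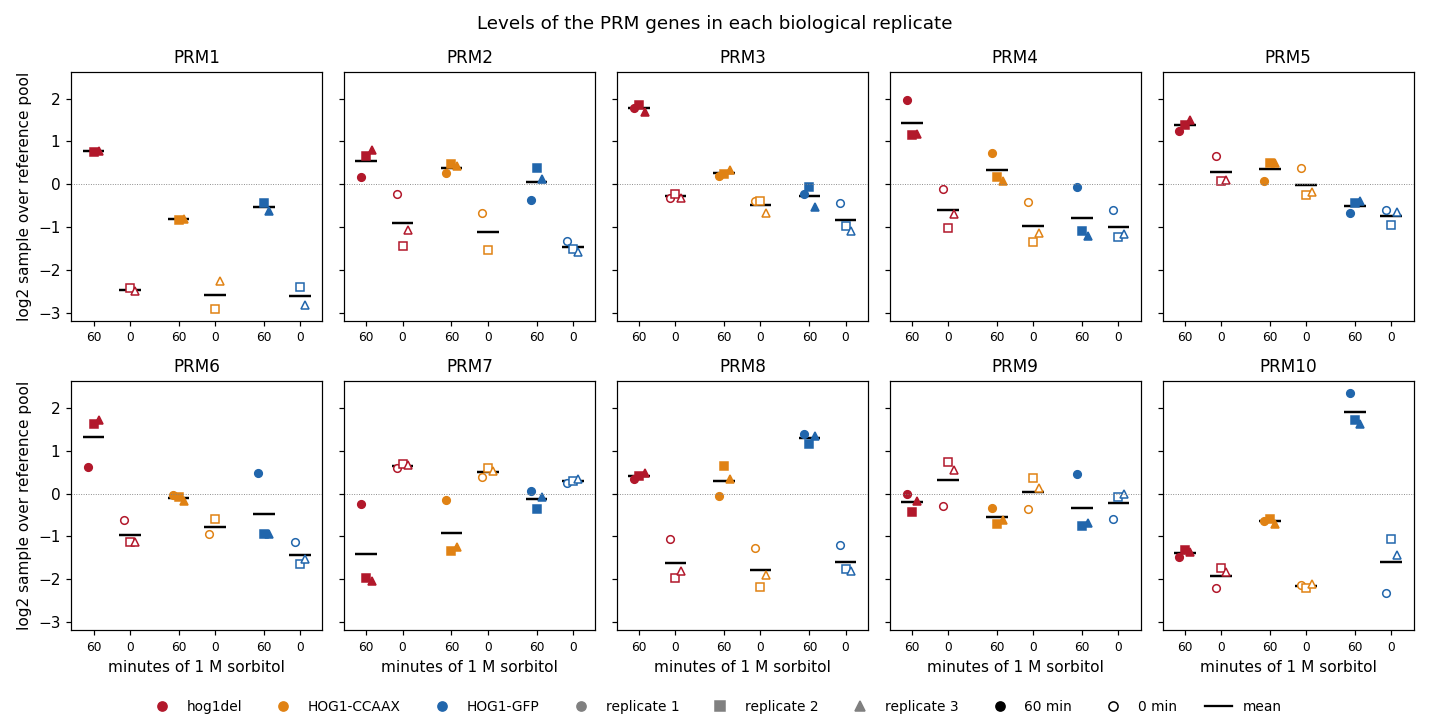
Levels of the 10 PRM genes, as log2 of the sample over the reference pool, in every biological replicate of hog1del, HOG1-CCAAX and HOG1-GFP at 60 min (filled) and 0 min (open), with bars at the mean. PRM3 at 60 min sits at 1.69 to 1.86 in hog1del, above all other columns, and PRM10 at 60 min sits at 1.62 to 2.36 in HOG1-GFP, above all other columns.

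**Figure D2:**
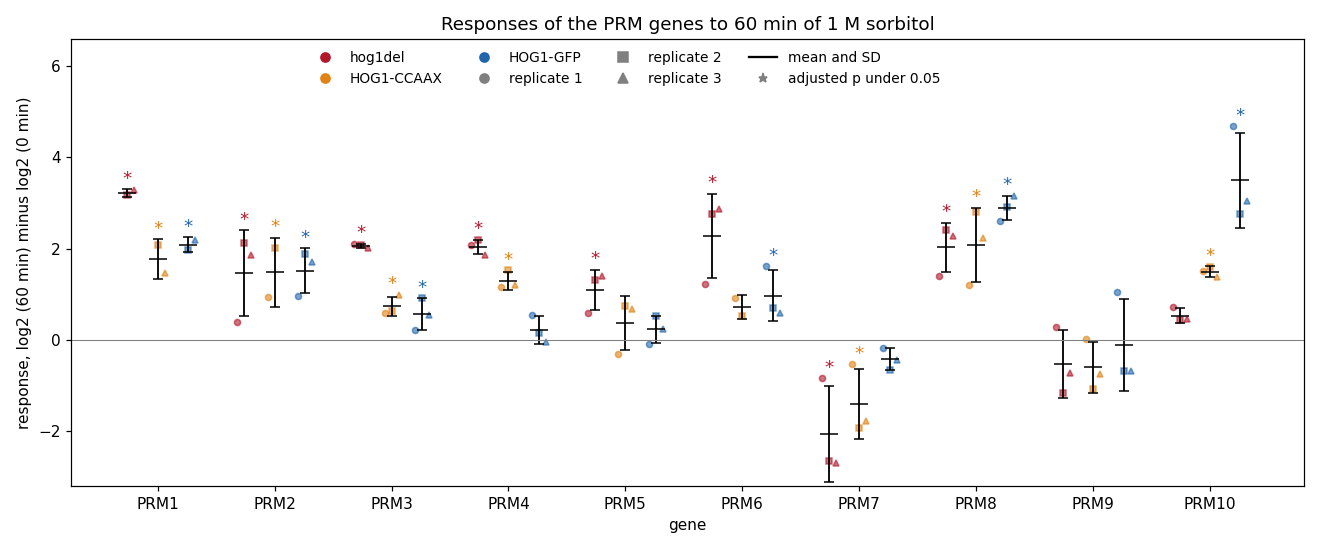
Responses of the PRM genes, as log2 at 60 min minus log2 at 0 min, with a symbol per biological replicate, the mean with its SD, and an asterisk where the limma adjusted p was under 0.05. PRM7 points down in all 3 strains, and the PRM10 means are 0.53 in hog1del, 1.50 in HOG1-CCAAX and 3.50 in HOG1-GFP.

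PRM1, PRM2 and PRM3 act in the joining of mating cells. PRM1 (YNL279W) encodes a membrane protein that promotes fusion of the plasma membranes of mating partners. It has values in replicates 2 and 3 alone, which were 0.75 and 0.78 in hog1del at 60 min, against −2.42 and −2.50 at 0 min. The HOG1-CCAAX levels were −0.83 and −0.80 at 60 min, against −2.92 and −2.27 at 0 min. Those of HOG1-GFP were −0.43 and −0.63 at 60 min, against −2.41 and −2.83 at 0 min. The strains overlapped before the shock, and after it hog1del stood above both other strains. PRM1 rose by 3.22 ± 0.08 in hog1del (9.35-fold), by 1.77 ± 0.44 in HOG1-CCAAX and by 2.09 ± 0.16 in HOG1-GFP (SD, n = 2, limma adjusted p = 5.4e-05, 5.1e-04 and 3.3e-04). With values in replicates 2 and 3 alone, PRM1 could not be tested without either of them. The −2.27 of HOG1-CCAAX at 0 min in replicate 3 came from a single array.

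PRM2 (YIL037C), which is linked to the fusion of nuclei after mating (karyogamy), had nearly equal mean responses in the strains. Its levels in hog1del were 0.16, 0.67 and 0.81 at 60 min, against −0.23, −1.45 and −1.06 at 0 min. The HOG1-GFP levels were −0.36, 0.37 and 0.13 at 60 min, against −1.32, −1.52 and −1.57 at 0 min. Every value at 60 min lay above every value at 0 min of the same strain, in HOG1-CCAAX too, where 0 min of replicate 3 has no value. The response was 1.46 in hog1del, 1.48 in HOG1-CCAAX and 1.52 in HOG1-GFP (limma adjusted p = 0.0087, 0.0198 and 0.0083). Without replicate 3 the 3 calls were lost, at adjusted p = 0.1058, 0.0649 and 0.0834. PRM2 was not tested without replicate 1 or without replicate 2, as too few HOG1-CCAAX values remained. Replicate 1 gave the smallest response in each strain, 0.39 in hog1del, 0.94 in HOG1-CCAAX and 0.97 in HOG1-GFP. The 0 min level behind the 0.39, at −0.23, came from a single array.

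PRM3 (YPL192C) encodes a nuclear envelope protein needed for the fusion of nuclear envelopes in zygotes, and it separated the strains with little spread between replicates. The levels in hog1del were 1.79, 1.86 and 1.69 at 60 min, against −0.31, −0.22 and −0.32 at 0 min. The levels in HOG1-CCAAX were 0.20, 0.25 and 0.33 at 60 min, against −0.40, −0.39 and −0.66 at 0 min. The levels in HOG1-GFP were −0.22, −0.06 and −0.54 at 60 min, against −0.43, −0.97 and −1.08 at 0 min. At 60 min the strains did not overlap, with hog1del highest and HOG1-GFP lowest, while the times overlapped within HOG1-GFP. The response of PRM3 was 2.06 ± 0.05 in hog1del (SD, n = 3), 0.74 in HOG1-CCAAX and 0.56 in HOG1-GFP, all past the threshold (limma adjusted p = 1.3e-05, 0.0024 and 0.0128). The HOG1-CCAAX call was lost without replicate 3 (adjusted p = 0.0923). The HOG1-GFP call was lost without replicate 2 (0.2272), without replicate 3 (0.1382) and after quantile normalization (0.0623).

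The molecular role of the PRM4 (YPL156C) product is not known. PRM4 levels in hog1del were 1.97, 1.16 and 1.17 at 60 min, against −0.11, −1.02 and −0.70 at 0 min. In HOG1-CCAAX they were 0.74, 0.17 and 0.08 at 60 min, against −0.41, −1.35 and −1.13 at 0 min. In HOG1-GFP they were −0.06, −1.09 and −1.21 at 60 min, against −0.60, −1.24 and −1.17 at 0 min. The strains were ordered hog1del, HOG1-CCAAX and HOG1-GFP at 60 min in every replicate, and replicate 1 was the highest of each group. PRM4 rose by 2.04 ± 0.16 in hog1del (SD, n = 3, limma adjusted p = 1.2e-05), and the rise of 1.29 in HOG1-CCAAX passed too (9.0e-05). In HOG1-GFP its response of 0.22 did not pass (adjusted p = 0.2400).

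PRM5 (YIL117C) is also a target of the cell wall integrity pathway, which runs through the MAP kinase Slt2 and the transcription factor Rlm1. Its levels in hog1del were 1.25, 1.39 and 1.50 at 60 min, against 0.65, 0.08 and 0.10 at 0 min. In HOG1-CCAAX they were 0.07, 0.50 and 0.49 at 60 min, against 0.37, −0.25 and −0.19 at 0 min. HOG1-GFP gave −0.67, −0.43 and −0.40 at 60 min, against −0.60, −0.95 and −0.64 at 0 min. The times were apart in hog1del and overlapped in the other strains. PRM5 rose by 1.10 in hog1del (limma adjusted p = 0.0037), a call lost without replicate 2 (0.0597) and without replicate 3 (0.0839). The responses of 0.38 in HOG1-CCAAX and 0.23 in HOG1-GFP did not pass (adjusted p = 0.1991 and 0.4403). The HOG1-CCAAX response passed with the replicate as a block (0.0143), and both passed without replicate 1 (2.9e-04 in HOG1-CCAAX and 0.0118 in HOG1-GFP). Its paralogue YNL058C fell in all 3 strains, by 0.66 in hog1del, by 1.00 in HOG1-CCAAX and by 1.92 in HOG1-GFP (adjusted p = 0.0382, 0.0059 and 1.9e-04). The fall in hog1del was lost without replicate 1 (0.1561) or 3 (0.1966) and after quantile normalization (0.0507), and that in HOG1-CCAAX without replicate 3 (0.0725).

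PRM6 (YML047C), also called KCH2, encodes a potassium importer of pheromone-treated cells. Its levels in hog1del were 0.62, 1.62 and 1.72 at 60 min, against −0.61, −1.13 and −1.14 at 0 min. HOG1-GFP gave 0.47, −0.94 and −0.94 at 60 min, against −1.14, −1.64 and −1.53 at 0 min. Replicate 1 departed from the other replicates in opposite directions, being lowest in hog1del and highest in HOG1-GFP at 60 min. PRM6 rose by 2.28 in hog1del (limma adjusted p = 6.7e-04) and by 0.97 in HOG1-GFP (0.0395), and the call in HOG1-GFP was lost without replicate 3 (0.0939). PRM6 was not tested without replicate 1 or without replicate 2. In HOG1-CCAAX, whose level column has no value for replicate 3 at 0 min, the response of 0.72 did not pass (0.1587). The per-array value table holds −1.56 there, from a single array, and in that table the response passed (0.94, 0.0351). Its paralogue KCH1 had responses of 0.21, −0.30 and −0.14 in hog1del, HOG1-CCAAX and HOG1-GFP, none of which passed. KCH1 passed as higher in hog1del without replicate 1 (0.41, adjusted p = 0.0060), and as lower in HOG1-CCAAX with the replicate as a block (0.0432) and without replicate 1 (−0.32, 0.0213).

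PRM7 (YDL039C) was the member that fell. Its levels in hog1del were −0.24, −1.96 and −2.03 at 60 min, against 0.60, 0.68 and 0.67 at 0 min. In HOG1-CCAAX they were −0.15, −1.33 and −1.25 at 60 min, against 0.38, 0.60 and 0.53 at 0 min. In HOG1-GFP they were 0.07, −0.37 and −0.09 at 60 min, against 0.24, 0.29 and 0.35 at 0 min. The times did not overlap in any strain, and replicate 1 moved least in each. PRM7 fell by 2.06 ± 1.06 in hog1del (SD, n = 3, limma adjusted p = 0.0016) and by 1.41 in HOG1-CCAAX (0.0106). In HOG1-GFP its response of −0.42 did not pass (0.3653) with all replicates and passed without replicate 1 (−0.55, 0.0014). The call in hog1del was lost without replicate 3 (0.0502), and that in HOG1-CCAAX without replicate 2 (0.1241) or 3 (0.1161).

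RefSeq lists the older name YDL038C under PRM7, and a separate probe carries that name. It was looked at after the PRM7 values were known. Its responses were −1.33, −2.63 and −2.56 in hog1del, −1.97, −1.95 and −1.49 in HOG1-CCAAX, and −0.39, −0.68 and −0.53 in HOG1-GFP. The YDL038C probe thus fell in hog1del (by 2.17, adjusted p = 9.3e-05) and HOG1-CCAAX (by 1.80, 2.2e-04), while −0.54 in HOG1-GFP did not pass (0.0862). It passed there with the replicate as a block (0.0298) and without replicate 1 (0.0022). A further probe that bears the identifier of PRM7 with a suffix has values in replicates 2 and 3 alone and stayed between −0.16 and 0.32 in the 12 columns, so that the probes named for PRM7 disagree. BSC1, the annotated gene next to PRM7, fell by 1.35 in hog1del (0.0065) and by 0.95 in HOG1-CCAAX (0.0309). Both BSC1 calls were lost without replicate 2 (0.0908 in hog1del and 0.1391 in HOG1-CCAAX) or 3 (0.0679 and 0.1862). Its response of −0.67 in HOG1-GFP did not pass (0.1078), and passed with the replicate as a block (0.0025) and without replicate 1 (0.0058).

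PRM8 (YGL053W) and PRM9 (YAR031W) belong to the DUP240 family of membrane proteins, whose members MST27 and MST28 act in the transport of vesicles between Golgi and endoplasmic reticulum. MST27 is the annotated gene next to PRM8 and MST28 the one next to PRM9. The family holds near copies, and the probe sequences were not used here, so signal shared between copies cannot be told apart. PRM8 levels in hog1del were 0.33, 0.42 and 0.47 at 60 min, against −1.07, −1.97 and −1.80 at 0 min. In HOG1-CCAAX they were −0.06, 0.64 and 0.33 at 60 min, against −1.26, −2.18 and −1.90 at 0 min. In HOG1-GFP they were 1.40, 1.16 and 1.35 at 60 min, against −1.21, −1.75 and −1.81 at 0 min. The strains overlapped at 0 min, and at 60 min HOG1-GFP stood above both others. PRM8 rose by 2.03 in hog1del, by 2.08 in HOG1-CCAAX and by 2.89 in HOG1-GFP, all past the limma threshold.

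PRM9 levels at 60 min and 0 min overlapped in each strain. Its responses were 0.29, −1.17 and −0.73 in hog1del, 0.02, −1.08 and −0.74 in HOG1-CCAAX, and 1.05, −0.69 and −0.68 in HOG1-GFP. Replicate 1 went up or stayed level while replicates 2 and 3 went down in every strain. None of the 3 responses passed. Without replicate 1 each did, as lower, at −0.95 in hog1del (limma adjusted p = 1.9e-04), −0.91 in HOG1-CCAAX (2.4e-04) and −0.69 in HOG1-GFP (0.0016). With the replicate as a block, those of hog1del (0.0046) and HOG1-CCAAX (0.0023) did.

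Among the 8 other DUP240 genes on the list, 1 rose and 1 fell in hog1del, 1 rose and 1 fell in HOG1-CCAAX, and 3 rose and 1 fell in HOG1-GFP. These 2, 2 and 4 calls of 8 stand against 53.1%, 53.8% and 46.5% of all open reading frames. They became 5, 6 and 6 with the replicate as a block, 5, 7 and 8 without replicate 1, and 0, 1 and 1 without replicate 2 or without replicate 3. The shares of all open reading frames became 69.4%, 68.4% and 65.2% with the block and 72.7%, 73.4% and 69.0% without replicate 1. They were 24.4%, 25.5% and 21.5% without replicate 2, and 21.9%, 26.2% and 19.8% without replicate 3. MST27 rose by 1.33 and MST28 by 1.28 in HOG1-GFP (limma adjusted p = 0.0204 and 0.0214). Replicate 1 gave the largest values, 2.66 for MST27 and 2.62 for MST28, against 0.58 to 0.74 in the other replicates. The calls held without replicate 1 and were lost without replicate 2 (0.0683 and 0.0591) or 3 (0.0627 and 0.0743). In hog1del MST27 at 0.84 and MST28 at 0.66 did not pass (0.0966 and 0.1685), but did with the replicate as a block (0.0016 and 0.0050) and, at smaller values of 0.43 (0.0059) and 0.32 (0.0165), without replicate 1. The same held in HOG1-CCAAX, where MST27 at 0.72 (0.1437) and MST28 at 0.59 (0.2170) passed with the block (0.0040 and 0.0095) and without replicate 1 at 0.52 (0.0021) and 0.34 (0.0114). YAR028W, which RefSeq names KTD1, fell by 0.65 in hog1del (0.0441), a call lost without replicate 2 (0.2028) or 3 (0.2910) and after median centring (0.0535). YAR028W also fell in HOG1-GFP, by 0.76 (0.0270), and that call too was lost without replicate 2 (0.1827) or 3 (0.2630).

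PRM10 (YJL108C) encodes a predicted membrane protein and had the largest response of any member in HOG1-GFP. Its levels in hog1del were −1.49, −1.31 and −1.37 at 60 min, against −2.20, −1.74 and −1.83 at 0 min. In HOG1-CCAAX they were −0.63, −0.60 and −0.71 at 60 min, against −2.14, −2.20 and −2.10 at 0 min. In HOG1-GFP they were 2.36, 1.71 and 1.62 at 60 min, against −2.33, −1.06 and −1.43 at 0 min. The strains were fully apart at 60 min, with hog1del lowest and HOG1-GFP highest, and overlapped at 0 min. The hog1del response of PRM10, 0.53 ± 0.16, did not pass with all replicates (SD, n = 3, limma adjusted p = 0.1590) and passed without replicate 1 (0.0061). In HOG1-CCAAX it rose by 1.50 ± 0.11 (0.0026), and in HOG1-GFP by 3.50 ± 1.04 (3.3e-05), which is 11.3-fold. PRM10 is 1 of the 30 genes in the authors' deposited table of genes induced in HOG1-GFP and less so in hog1del. That list was chosen on these samples and adds no independent evidence for the direction.

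YJL107C, the annotated gene next to PRM10, had responses of −0.63, 0.35 and 0.92 in hog1del, −0.41, 2.07 and 1.53 in HOG1-CCAAX, and 1.99, 3.01 and 3.74 in HOG1-GFP. All HOG1-GFP replicates but replicate 1 lay above every value of the other strains. The YJL107C responses of 0.21 in hog1del (limma adjusted p = 0.7273) and 1.06 in HOG1-CCAAX (0.0890) did not pass, while it rose by 2.91 in HOG1-GFP (0.0011). The first 2 passed without replicate 1 (0.0195 in hog1del and 4.5e-05 in HOG1-CCAAX), and that of HOG1-CCAAX also with the replicate as a block (5.4e-04).

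**Figure D3:**
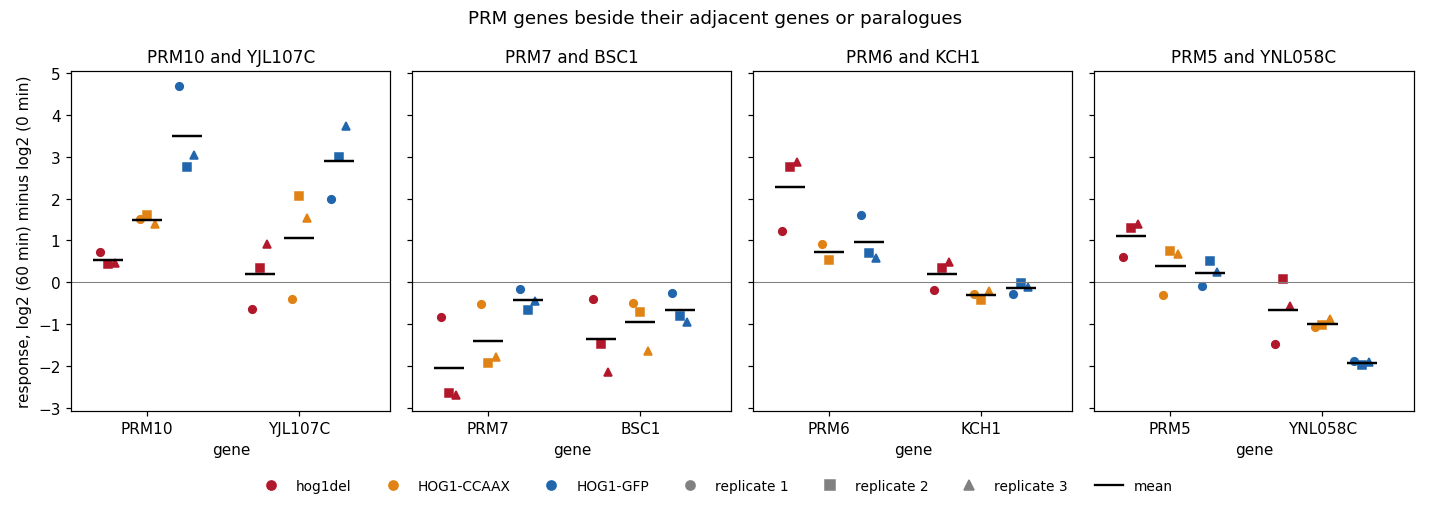
Responses of PRM10 and PRM7 beside their adjacent genes YJL107C and BSC1, and of PRM6 and PRM5 beside their paralogues KCH1 and YNL058C, with a symbol per replicate and bars at the mean, in log2 units. PRM10 and YJL107C are both highest in HOG1-GFP, with means of 3.50 and 2.91, whereas the KCH1 responses lie between −0.42 and 0.48 in all columns.

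The strains' responses were compared directly by contrasts within the same limma model. Between hog1del and HOG1-GFP, 3 members differed, 2 with a larger and 1 with a smaller response in hog1del, where 2.58% of all tested open reading frames differed, 1.58% as higher and 1.00% as lower. PRM3 responded more in hog1del by 1.51 (95% interval 1.04 to 1.97, adjusted p = 0.0074) and PRM4 by 1.83 (1.37 to 2.29, 0.0024). PRM10 responded less in hog1del, with a difference of −2.97 (−3.92 to −2.01, 0.0079). Differences given per replicate, here and below, match replicates of equal number. Matched so, the sign was the same in all 3 replicates for these 3 genes. The differences were 1.89, 1.17 and 1.47 for PRM3, 1.54, 2.04 and 1.92 for PRM4, and −3.97, −2.34 and −2.59 for PRM10. For each of these genes the hog1del and HOG1-GFP responses did not overlap, so their order does not rest on the matching. The 3 calls held without replicate 1. They were lost without replicate 2, at differences of 1.68 for PRM3 (0.1731), 1.73 for PRM4 (0.1920) and −3.28 for PRM10 (0.1653), when 2 open reading frames passed in all. They were also lost without replicate 3, at 1.53 (0.3615), 1.79 (0.2574) and −3.16 (0.3218) in the same order, when none passed.

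A block for the replicate raised the count for hog1del against HOG1-GFP to 7 members, while the share of all open reading frames that passed became 13.6%. The added members were PRM1 with a difference of 1.14 (adjusted p = 0.0193), PRM5 with 0.88 (0.0075), PRM7 with −1.64 (0.0032) and PRM8 with −0.86 (0.0273). The same 4 passed without replicate 1, at 0.0072, 0.0035, 7.7e-05 and 0.0448, when 20.1% of all passed. Without the block their adjusted p was 0.1031 for PRM1, 0.2238 for PRM5, 0.1492 for PRM7 and 0.3457 for PRM8. PRM6 had differences of −0.39, 2.06 and 2.27 in the 3 replicates, with a mean of 1.31 that did not pass (0.2036), and it was not tested without replicate 1. PRM2 showed no detectable difference, at −0.06 with an interval of −1.20 to 1.08, and neither did PRM9, at −0.43 with an interval of −1.64 to 0.79. For the YDL038C probe of PRM7 the difference was −1.64 (0.0344), which was lost without replicate 2 (0.5536) or 3 (0.6403) and with hog1del and HOG1-GFP fitted alone (0.0724). The difference for YJL107C was −2.70 and nearly equal in the replicates, at −2.61, −2.66 and −2.83, and it missed the threshold (0.0785) unless the replicate was a block (2.8e-04), replicate 1 was left out (5.7e-04) or quantiles were normalized (0.0275).

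Between HOG1-CCAAX and HOG1-GFP no member differed, where 0.317% of all did, 0.133% as higher and 0.183% as lower, and 1 member was higher and 1 lower in limma at an unadjusted p under 0.05. These were PRM4, with a difference of 1.08 (95% interval 0.62 to 1.53, adjusted p = 0.0747), and PRM10, with −2.00 (−2.95 to −1.05, 0.1072). Both passed with the replicate as a block (0.0089 each) and without replicate 1 (0.0043 and 0.0017), as did PRM7 without replicate 1 (−1.30, 0.0019). For PRM3 the interval of the difference ran from −0.28 to 0.66.

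Between HOG1-CCAAX and hog1del no member differed either, where 0.117% of all did, 0.0333% as higher and 0.0833% as lower, and 1 member was higher and 4 lower at an unadjusted p under 0.05. PRM3 came closest, with differences of −1.51, −1.43 and −1.02 in the 3 replicates (mean −1.32, interval −1.79 to −0.85, limma adjusted p = 0.0668). It passed after median centring (0.0415), in the per-array value table (0.0391), with the replicate as a block (0.0081) and without replicate 1 (0.0082). PRM1 had a difference of −1.45 (0.2470), which passed with the block (0.0259) and without replicate 1 (0.0072). Without replicate 1, PRM5 (−0.64, 0.0370), PRM7 (0.82, 0.0154) and PRM10 (1.06, 0.0085) passed as well. The intervals for PRM2 (−1.26 to 1.29), PRM8 (−0.87 to 0.97) and PRM9 (−1.28 to 1.15) were wide and included 0.

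**Figure D4:**
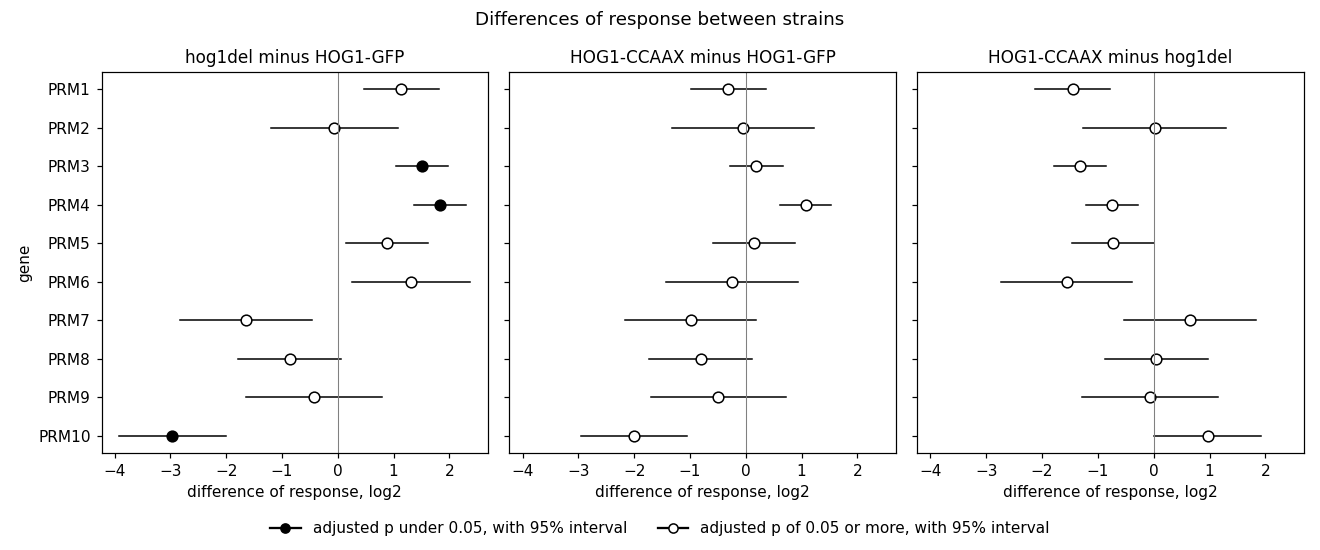
Differences of response between strains for the 10 PRM genes, in log2 units, with 95% intervals from the limma fit, and filled symbols where the adjusted p was under 0.05. PRM3 and PRM4 lie right of 0 and PRM10 left of 0 for hog1del minus HOG1-GFP, and no symbol is filled in the other panels.

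Before the shock 2 members passed as different between strains. In hog1del against HOG1-GFP, 2 members were higher at 0 min and none lower, where 1.08% of all open reading frames differed, 0.717% as higher and 0.367% as lower. At an unadjusted limma p under 0.05, 7 members were higher and none lower, and the median difference of the members was 0.43 against 0.01 over all. PRM5 was higher by 1.24, 1.03 and 0.74 in the 3 replicates (mean 1.00, 95% interval 0.76 to 1.25, limma adjusted p = 0.0020). The PRM5 levels of hog1del and of HOG1-GFP did not overlap at 0 min, so the response of PRM5 started from a higher level in hog1del. PRM9 was higher by 0.29, 0.80 and 0.55 (mean 0.55, 0.0491), a call that ended without replicate 2 (0.3651), without replicate 3 (0.3959), after quantile normalization (0.0660), in the per-array value table (0.0561) and with hog1del and HOG1-GFP fitted alone (0.1040). PRM3 had differences of 0.12, 0.75 and 0.76, which passed when replicate 1 was left out (0.0138).

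In HOG1-CCAAX against HOG1-GFP, 1 member differed at 0 min, where 0.300% of all did, 0.167% as higher and 0.133% as lower, and 5 members were higher and 1 lower at an unadjusted limma p under 0.05. The member that passed was PRM5 again, higher by 0.97, 0.71 and 0.45 (mean 0.71, interval 0.46 to 0.95, limma adjusted p = 0.0287). The call ended without replicate 1 (0.0623), 2 (0.1112) or 3 (0.0897), after quantile normalization (0.0942) and with HOG1-CCAAX and HOG1-GFP fitted alone (0.1058). PRM10 was lower at 0 min without replicate 1 (−0.91, 0.0328). Levels at 0 min were fitted with the replicate as a block, and without it PRM5 and PRM9 did not pass (0.8098 for PRM5 and 0.9996 for PRM9 in hog1del, and 0.9999 for PRM5 in HOG1-CCAAX). HOG1-CCAAX and hog1del differed at 0 min in no member, where 0.250% of all differed, 0.150% as higher and 0.100% as lower, with 3 members lower at an unadjusted limma p under 0.05.

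Over the 18 level columns, with each replicate's mean taken off, the 7 members with complete values fell into patterns, given as correlations that describe 3 strains at 2 times and share their replicates. PRM3, PRM4 and PRM5 followed each other, at r = 0.96 for PRM3 with PRM4, 0.89 for PRM3 with PRM5 and 0.87 for PRM4 with PRM5. PRM7 ran against them, at r = −0.81 with PRM3, −0.83 with PRM4 and −0.68 with PRM5. PRM8 followed PRM10 at r = 0.79, and PRM10 was unrelated to PRM3 (−0.03) and PRM4 (−0.04). Of these 7, PRM9 had the smallest SD of its 6 group means, at 0.31, and PRM10 the largest, at 1.50.

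Among the 7 members with complete values, the 3 of largest SD were PRM10, PRM8 and PRM4. The genes outside the family most like each, by Pearson's r over the same 18 columns, were distinct. For PRM10 they were YBR116C (0.964), the transcriptional repressor gene MOT3 (0.956) and the alcohol dehydrogenase gene SFA1 (0.950). For PRM8 they were the diacylglycerol acyltransferase gene DGA1 (0.988), TOH1 (0.987) and SYM1 (0.986), which encodes a mitochondrial inner membrane protein. For PRM4 they were RNR4 (0.975), a subunit of ribonucleotide reductase, PAU13 (0.971) and TEC1 (0.971), the transcription factor of filamentous growth.

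The wider mating programme was followed through lists assembled with earlier results of these data known. Of 21 pheromone signalling genes, from receptor to transcription factors, 20 were tested, and 15 rose and none fell in hog1del, 12 rose and 2 fell in HOG1-CCAAX, and 6 rose and 2 fell in HOG1-GFP. Over all open reading frames the share that rose was 25.6%, 27.5% and 23.7%, and the share that fell 27.5%, 26.3% and 22.8%, in the same strains. The list's calls in either direction dropped to 9, 5 and 4 without replicate 2 (18 tested), when 24.4%, 25.5% and 21.5% of all passed. They were 7, 6 and 3 without replicate 3 (19 tested), when 21.9%, 26.2% and 19.8% of all passed. The median response of the list was 0.78 in hog1del, 0.44 in HOG1-CCAAX and 0.15 in HOG1-GFP. In the contrast of hog1del and HOG1-GFP, 7 responded more in hog1del and none less, where 1.58% and 1.00% of all did. The count was 11 under the replicate block, when 13.6% of all passed. None passed without replicate 2 or 3, when 2 and 0 open reading frames passed in all.

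STE12, the pheromone transcription factor, rose by 1.89 ± 0.14 in hog1del and by 0.33 in HOG1-CCAAX (limma adjusted p = 0.0295), and its 0.02 in HOG1-GFP did not pass (0.9096). The HOG1-CCAAX call of STE12 was lost without replicate 2 (0.2634) or 3 (0.2008), after quantile normalization (0.2282) and in the per-array value table (0.1043). KAR4, a transcription factor that acts with Ste12 on karyogamy genes, rose by 3.15 in hog1del, 1.13 in HOG1-CCAAX and 1.09 in HOG1-GFP. TEC1 rose by 2.84 in hog1del and 1.76 in HOG1-CCAAX, and its 0.21 in HOG1-GFP did not pass (0.2549). BAR1, the protease that degrades alpha-factor, rose by 2.65 in hog1del, 1.09 in HOG1-CCAAX and 0.72 in HOG1-GFP (0.0275). BAR1 was lost in HOG1-CCAAX without replicate 2 (0.0515), and in HOG1-GFP without replicate 2 (0.1862) or 3 (0.1454) and after quantile normalization (0.2057).

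Among 18 mating effectors, which carry out agglutination, fusion and arrest, 14 rose and none fell in hog1del, 8 rose and 3 fell in HOG1-CCAAX, and 7 rose and 3 fell in HOG1-GFP. The shares of all that rose were 25.6%, 27.5% and 23.7%, and of all that fell 27.5%, 26.3% and 22.8%. Calls in either direction dropped to 9, 7 and 7 without replicate 2, when 24.4%, 25.5% and 21.5% of all passed. They were 9, 8 and 7 without replicate 3, when 21.9%, 26.2% and 19.8% of all passed. The median response of the mating effectors was 1.19, 0.71 and 0.41 in hog1del, HOG1-CCAAX and HOG1-GFP. In the contrast of hog1del and HOG1-GFP, 4 responded more in hog1del and none less, where 1.58% and 1.00% of all did. The count was 13 under the replicate block and 15 without replicate 1, when 13.6% and 20.1% of all passed. None passed without replicate 2 or 3, when 2 and 0 open reading frames passed in all. FUS1, a cell fusion gene widely used as a reporter of the pathway, had responses of 0.97, 4.92 and 4.34 in hog1del, against 0.63, 1.61 and 2.08 in HOG1-GFP. It rose in hog1del by 3.41 ± 2.13 (SD, n = 3, limma adjusted p = 0.0028), a call lost without replicate 2 (0.0643) or 3 (0.0585). Its response did not pass in HOG1-CCAAX (1.10, 0.1996) or HOG1-GFP (1.44, 0.1094) with all replicates, and passed in both with the replicate as a block (0.0073 and 0.0016) and without replicate 1 (1.7e-05 and 1.5e-05). PCL2, a cyclin of the kinase Pho85, rose by 3.07, 1.96 and 1.32, and ASG7, a gene specific to a cells, by 2.61, 1.95 and 1.48, in hog1del, HOG1-CCAAX and HOG1-GFP.

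The 14 targets of Rlm1 and cell wall integrity signalling, to which PRM5 is linked, moved in both directions. In hog1del 3 rose and 6 fell, in HOG1-CCAAX 5 rose and 5 fell, and in HOG1-GFP 6 rose and 2 fell, with medians of −0.19, 0.04 and 0.49. The 9, 10 and 8 of 14 called stand against 53.1%, 53.8% and 46.5% called over all open reading frames. The list's calls dropped to 3, 2 and 5 without replicate 2, when 24.4%, 25.5% and 21.5% of all passed. They were 2, 3 and 4 without replicate 3, when 21.9%, 26.2% and 19.8% of all passed. In the contrast of hog1del and HOG1-GFP 1 responded less and none more, where 1.00% and 1.58% of all did. The count was 6 under the replicate block and 8 without replicate 1, when 13.6% and 20.1% of all passed. None passed without replicate 2 or 3, when 2 and 0 open reading frames passed in all. PST1, a cell wall protein gene, fell by 1.47 in hog1del, by 0.73 in HOG1-CCAAX and by 0.83 in HOG1-GFP. The PST1 calls were lost in HOG1-CCAAX without replicate 2 (0.0656) or 3 (0.1139) and after quantile normalization (0.0519), and in HOG1-GFP without replicate 2 (0.0650) or 3 (0.1082). CRH1, a chitin transglycosylase gene, rose by 1.28, 1.02 and 1.30 in hog1del, HOG1-CCAAX and HOG1-GFP. CWP1, a mannoprotein gene, rose by 1.14 in hog1del, 2.41 in HOG1-CCAAX and 2.70 in HOG1-GFP, with the hog1del call lost without replicate 3 (limma adjusted p = 0.0612).

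**Figure D5:**
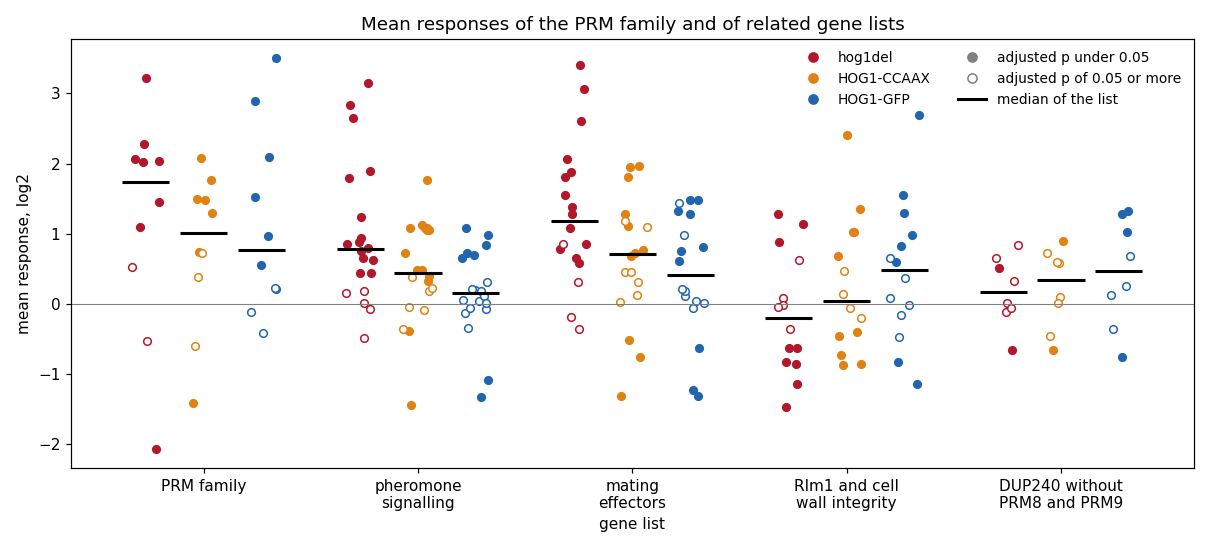
Mean response of each gene, in log2 units, for the PRM family, pheromone signalling genes, mating effectors, Rlm1 and cell wall integrity targets and the DUP240 genes without PRM8 and PRM9, in hog1del, HOG1-CCAAX and HOG1-GFP, with filled symbols where the limma adjusted p was under 0.05 and bars at the list median. The median of the PRM family is 1.74 in hog1del and 0.76 in HOG1-GFP, and that of the cell wall list is −0.19 in hog1del and 0.49 in HOG1-GFP.

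Markers of mating type were examined beside the family, since the labels do not give the type. Of 7 a cell markers, 4 rose and none fell in hog1del, 2 rose and 3 fell in HOG1-CCAAX, and 2 rose and 3 fell in HOG1-GFP, with mean responses between −1.31 and 2.65. These 4, 5 and 5 calls of 7 stand against 53.1%, 53.8% and 46.5% called over all open reading frames. In the contrast of hog1del and HOG1-GFP, 3 of the 7 responded more in hog1del and none less, where 1.58% and 1.00% of all did. None of the alpha cell markers differed in it with all replicates and no block. MFALPHA1 passed in it, as higher, with the replicate as a block (1.59, limma adjusted p = 0.0177), when 13.6% of all passed. It also passed without replicate 1 (2.31, 1.3e-04), when 20.1% of all did. Without replicates 2 and 3 that contrast passed 2 and 0 open reading frames in all. Of the 4 alpha cell markers, 4 rose in hog1del, 1 in HOG1-CCAAX and 1 in HOG1-GFP, with mean responses between 0.11 and 2.04, where 25.6%, 27.5% and 23.7% of all rose. MFALPHA1, which encodes alpha-factor, rose by 2.04 in hog1del (limma adjusted p = 0.0109), with responses of 0.11, 2.98 and 3.02 in the replicates. STE3, the receptor of a-factor, rose by 1.07 in hog1del (0.0107), and MFALPHA2, a further alpha-factor gene, by 0.41 (0.0231). All 4 alpha cell calls in hog1del were lost without replicate 2 or without replicate 3, when 24.4% and 21.9% of all passed. Levels are ratios to a pool, so whether a marker was absent is unknown, and the part of these markers in the PRM values was not tested.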

How the data were processed

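The authors deposited log2 ratios of the reference pool over the sample, and a per-array value table of the same arrays. Each ratio averages up to 3 technical arrays (replicate 1) or up to 2 (replicates 2 and 3). Where technical arrays lacked a value, some ratios rest on a single array, also among the members. How background, spot filters and scaling were handled is not given in the sources used here. All signs were reversed, and a positive value stands for more transcript in the sample than in the pool. The labels state both dyes, so this direction was kept. The reversed columns correlated at 0.997 or more with means of the per-array values, which are of sample over pool. Level columns correlated with each other across probes down to −0.45, which reversing all signs leaves unchanged. Differences of the levels equalled the authors' deposited log2 fold changes to within 5.0e-07.

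Responses were fitted with limma 3.58.1 in R 4.3.3 (lmFit, eBayes, two-sided) on 9 within-replicate fold changes, with strain as the only term. The fit of 0 min levels included a replicate block. Adjustment of p values was by Benjamini and Hochberg over 5999 open reading frames, and 0.05 was the threshold. Folds are powers of 2 of the mean. SDs cover biological replicates, whose separate origin rests on the design text. Where a member lacked a value, the fit used the remaining replicates. Technical arrays of a member differed by a median of 0.10 to 0.30. The number of arrays limits the precision.

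Deviations from group means correlated between samples of equal number at 0.44 to 0.91, and of unequal number at up to 0.81. For replicate 1 each equal-number value exceeded the highest of unequal number for the same 2 strains. Several values of replicates 2 and 3 did not, such as 0.44 and 0.45 against 0.61 for the response of HOG1-CCAAX and HOG1-GFP. Whether the numbers pair replicates 2 and 3 is therefore not settled. The contrasts of response leave any pairing out. The fit with a replicate block is given where it changes a member's call, and only in part for other genes. Among others, FUS1 (1.97, limma adjusted p = 0.0134), YNL058C (1.26, 0.0134), ASG7 (1.12, 0.0157) and PST1 (−0.64, 0.0339) passed with it for hog1del minus HOG1-GFP. For HOG1-CCAAX minus hog1del, TEC1 (−1.08, 0.0129), BAR1 (−1.55, 0.0114), FUS1 (−2.32, 0.0246) and PCL2 (−1.11, 0.0065) did. Of all, 13.6% and 2.18% passed with it. RefSeq (R64) supplied symbols and neighbours only. The members, lists and tests were chosen with earlier results of these data known. Named were all members, the paralogues and neighbours, MST27, MST28, STE12, KAR4, TEC1, FUS1, HOG1, the 3 genes of each list with the largest absolute hog1del response, and the 3 genes most like each of 3 members. YDL038C was added after its values were seen. Alternatives were median centring, quantile normalization, genes complete in 18 columns, the per-array table, robust eBayes, the replicate block, the compared strains alone, and each replicate left out. The tests were checked on simulated data with independent noise in each column. That check leaves out the deviations shared between samples and the smaller spread of replicate 1.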

Additional observations from a re-analysis of the deposited data

Results flagged for a closer look

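A test of the difference between 2 strains' responses singled out the following values, which are given without explanation. For hog1del minus HOG1-GFP, the difference was 1.51 for PRM3, 1.83 for PRM4 and −2.97 for PRM10, and −1.64 for the YDL038C probe of PRM7. In the pheromone signalling list it was 1.88 for STE12, 2.06 for KAR4, 2.63 for TEC1 and 1.93 for BAR1. It was 1.75 for PCL2 among the mating effectors and −1.56 for CWP1 among the cell wall genes. For HOG1-CCAAX minus HOG1-GFP it was 1.55 for TEC1. For HOG1-CCAAX minus hog1del it was −1.56 for STE12 and −2.02 for KAR4. Each was lost without replicate 2 and without replicate 3, and kept its sign there. BAR1 for hog1del minus HOG1-GFP, TEC1 for HOG1-CCAAX minus HOG1-GFP and KAR4 for HOG1-CCAAX minus hog1del were lost after quantile normalization too (limma adjusted p = 0.0798, 0.2166 and 0.1724). The differences that involve HOG1-CCAAX and that of YDL038C were lost with the compared strains fitted alone (0.0803 for TEC1, 0.1838 for STE12, 0.1978 for KAR4 and 0.0724 for YDL038C).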

How the results depend on the processing

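Of the counts of PRM members called, leaving out a replicate moved most. Over the 3 omissions the count ran from 4 to 8 for the hog1del response (8 with all replicates), from 3 to 8 for HOG1-CCAAX (7) and from 2 to 7 for HOG1-GFP (6). The upper ends came without replicate 1, when 72.7%, 73.4% and 69.0% of all open reading frames passed. The lower ends came without replicate 2 or 3, when 19.8% to 26.2% of all passed. The count ran from 0 to 7 for the difference hog1del minus HOG1-GFP (3), from 0 to 3 for HOG1-CCAAX minus HOG1-GFP (0) and from 0 to 5 for HOG1-CCAAX minus hog1del (0). These upper ends too came without replicate 1, when 20.1%, 8.65% and 8.72% of all passed. At 0 min the count ran from 1 to 3 for hog1del minus HOG1-GFP (2) and from 0 to 1 for HOG1-CCAAX minus HOG1-GFP (1). Here 1.44% and 0.575% of all passed without replicate 1, which gave the upper ends. Part of the falls in the responses of single strains is members not tested. Without replicate 1, 8 members were tested, 7 without replicate 2 and 9 without replicate 3. The members called for the difference hog1del minus HOG1-GFP and at 0 min were tested in every omission. With the replicate block the 3 differences of response called 7, 2 and 2 members, where 13.6%, 3.07% and 2.18% of all passed. Median centring and the per-array value table each called 1 for HOG1-CCAAX minus hog1del. Genes complete in 18 columns, which leave out PRM1, PRM2 and PRM6, gave 5 for hog1del and 3 for HOG1-GFP. For hog1del minus HOG1-GFP at 0 min the count was 1 after quantile normalization, in the per-array value table and with the compared strains alone, and 0 with no replicate block. For HOG1-CCAAX minus HOG1-GFP at 0 min it was 0 after quantile normalization, with the compared strains alone and with no replicate block. The causes were not tested beyond the smaller number of samples or genes. No member's value changed sign while called, and robust eBayes changed none of 90 member calls.

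Over all open reading frames, 3183 passed for hog1del, 3230 for HOG1-CCAAX and 2788 for HOG1-GFP, against 1225 to 1347, 1411 to 1461 and 1107 to 1186 without replicate 2 or 3. Without replicate 1, 4178, 4218 and 3961 passed in the same order. For hog1del minus HOG1-GFP, 155 passed, against 813 with the block, 1155 without replicate 1, and 2 and 0 without replicates 2 and 3. For HOG1-CCAAX minus HOG1-GFP, 19 passed, against 12 after quantile normalization, 184 with the block, 497 without replicate 1, 0 without replicate 2 or 3, and 6 with the compared strains alone. For HOG1-CCAAX minus hog1del, 7 passed, against 12, 131, 501, 0 and 0 under the same settings. At 0 min, hog1del minus HOG1-GFP gave 65, against 40 after quantile normalization, 4 with no block, 31 and 10 without replicates 2 and 3, and 42 with the compared strains alone. HOG1-CCAAX minus HOG1-GFP gave 18, against 9 after quantile normalization, 0 with no block, 33 and 6 without replicates 1 and 3, and 6 with the compared strains alone. HOG1-CCAAX minus hog1del gave 15, against 2 with no block, and 37 and 7 without replicates 1 and 3. Signal over background is unknown and limits the reading of low levels.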
